A study of Mus musculus with 4 samples.

Results

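IGF2BP3 binding was examined on the mRNAs of 10 marker genes of somatic cells of the mouse testis. Insl3, Cyp17a1, Cyp11a1, Hsd3b6 and Star mark Leydig cells, and Clu, Ctsl, Sox9, Cldn11 and Inha mark Sertoli cells. A cluster, a stretch of genome with piled-up immunoprecipitated reads, was given to a marker when its centre lay inside the gene span on the gene's strand. All 10 genes had clusters, out of 14580 protein-coding genes with a cluster in at least 1 replicate. They held 117 of 337234 clusters in replicate 1 and 124 of 216354 in replicate 2.

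The study asked which RNAs the RNA-binding protein IGF2BP3 contacts in the testis. Testes of 8-week-old wild-type C57BL/6 mice were crosslinked with UV light, and RNA bound to IGF2BP3 was recovered with an antibody and sequenced (eCLIP-seq, IP). A size-matched input of the same lysate (SMInput) served as the background of each IP, giving 2 replicates and 4 libraries. The libraries held 5133438 (IP) and 8706391 (SMInput) usable reads in replicate 1, and 4637612 and 16696122 in replicate 2.

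Leydig cells lie between the seminiferous tubules and make testosterone and the peptide hormone INSL3. Sertoli cells line the tubules, nurse the germ cells, seal the blood-testis barrier with tight junctions and secrete inhibin. The labels describe the material as germ cells and somatic cells, so that a cluster on a marker mRNA carries no label of the cell it came from, and Clu and Ctsl are made in many tissues. In such bulk samples, fewer cells of a type and less RNA per cell cannot be told apart.

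Few clusters on the marker mRNAs passed the authors' thresholds for a significant peak, which ask that both the log2(fold change) of IP over SMInput and the −log10(P value) reach 2. In replicate 1, 4 of 117 clusters on the markers passed (3.42%), beside 4.92% of all clusters. In replicate 2, 8 of 124 passed (6.45%), beside 13.2% of all clusters. Reads could be worked out only for clusters with a −log10(P value) above 0, so that 19 and 9 marker clusters, most of them below a log2(fold change) of 0, are missing from every statement on reads. Where reads were known, the marker clusters were deeper than most, with a median of 24.5 and 29 IP reads in replicates 1 and 2, where all clusters had a median of 4 in both. Among clusters known to hold at least 10 IP reads, the marker mRNAs had 2 significant peaks of 73 clusters (2.74%) in replicate 1, beside 25.1% of all such clusters. In replicate 2 they had 6 of 80 (7.50%), beside 27.6%. The share of peaks on the markers lay below that of all clusters in this set too. Clu by itself gave 21 of the 73 and 28 of the 80 clusters, with 0 peaks. Most marker clusters lay in the coding sequence, where 15.8% of all clusters of that depth were significant in each replicate.

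Many marker clusters did pass the P value threshold by itself. In replicate 1, the −log10(P value) of 35 of 117 marker clusters reached 2 (29.9%), beside 7.45% of all clusters, and in replicate 2 the count was 47 of 124 (37.9%), beside 18.8%. The contrast was smaller among exonic clusters, to which nearly all marker clusters belong, with 34 of 110 (30.9%) on the markers beside 20869 of 139292 in all in replicate 1, and 47 of 123 (38.2%) beside 28912 of 113441 (25.5%) in replicate 2. Of the 35 and 47 marker clusters, Insl3 alone gave 15 and 14. In the 3′UTR, 8 of 19 marker clusters passed the P value threshold in replicate 1, beside 27.7% of all 3′UTR clusters. In replicate 2 it was 11 of 24, beside 48.1%. Most marker clusters past the P value threshold lay below a log2(fold change) of 2, a value normalised to the usable reads of each library. When the log2(fold change) had to reach 1 in place of 2, 27 of 117 and 37 of 124 marker clusters passed. Of all clusters, 7.24% and 18.4% did. At this setting the marker shares thus lay above those of all clusters, whereas at 2 they lay below. The median log2(fold change) of the marker clusters was 0.74 in replicate 1 and 1.02 in replicate 2. Both lay below the medians of all clusters, 1.50 and 1.53. Among exonic clusters this gap was smaller, with medians of 0.705 and 1.046 on the markers beside 1.084 and 1.196 in all. Among clusters known to hold at least 10 IP reads, a set that leaves out depleted clusters of any depth, the marker medians were 0.83 and 0.98 and those of all clusters 1.31 and 1.41. Enrichment on the markers was modest in both replicates.

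Counted by gene, Star, Ctsl, Cldn11 and Inha had a significant peak in replicate 1, which made 4 of 10 markers where 40.8% of protein-coding genes with a cluster had such a peak. In replicate 2, the 5 markers with a peak were Insl3, Cyp11a1, Hsd3b6, Ctsl and Inha, beside 62.8% of genes. Only Ctsl and Inha had a peak in both replicates, 2 of 10 markers beside 39.1% of protein-coding genes with a cluster in both replicates. Their peaks also overlapped between the replicates, a property of 16.6% of those genes. With at least 10 IP reads required, Ctsl and Inha were again the markers with a peak in both replicates, beside 22.1% of those genes. With both thresholds at 3 there were 0 such markers, beside 9.43%.

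**Figure D1:**
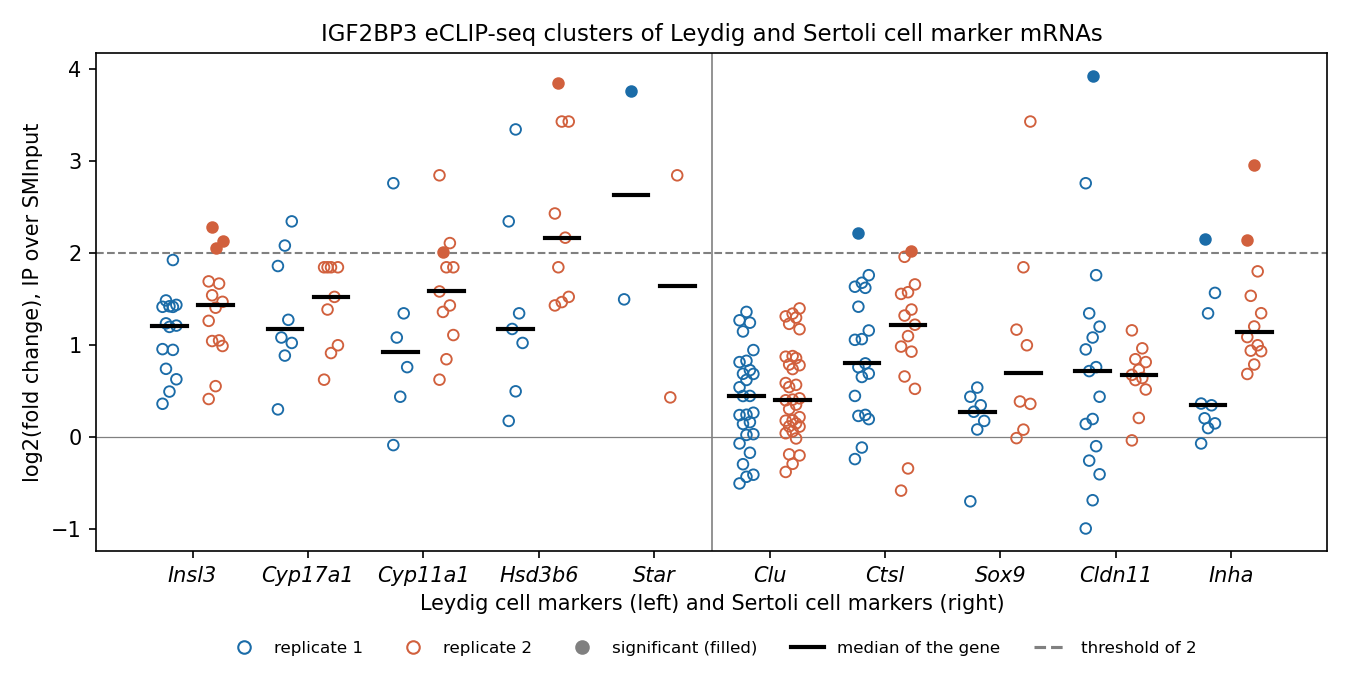
Each point is 1 cluster on a marker mRNA, placed by gene and by its log2(fold change) of IP over SMInput, in replicates 1 and 2, with significant peaks as filled points, the median of the gene as a black bar and the threshold of 2 as a dashed line. Ctsl and Inha are the markers with a significant peak in both replicates.

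Clusters of the Leydig markers lay higher than those of the Sertoli markers. The 5 Leydig mRNAs had 38 and 45 clusters with a median log2(fold change) of 1.21 in replicate 1 and 1.54 in replicate 2. For the 5 Sertoli mRNAs, 79 clusters in each replicate had medians of 0.45 and 0.79. The gap was smaller in wider lists, with medians of 1.50 and 1.53 for clusters of 14 other Leydig genes and 1.35 and 1.36 for those of 27 other Sertoli genes. Among marker clusters known to hold at least 10 IP reads, the Leydig medians were 1.21 and 1.44 and the Sertoli medians 0.69 and 0.87. The set leaves out clusters with a −log10(P value) of 0, which were mostly Sertoli ones, and Insl3 gave 15 of the 20 Leydig clusters of that depth in replicate 1 and 14 of 18 in replicate 2. In both replicates the median of each Leydig gene lay above that of each Sertoli gene, an order noticed after the values were seen and not tested. The mean of the 2 replicate medians was 2.14 ± 0.70 (SD, n = 2) for Star, 1.67 ± 0.70 for Hsd3b6, 1.35 ± 0.24 for Cyp17a1, 1.33 ± 0.16 for Insl3 and 1.25 ± 0.47 for Cyp11a1. Among the Sertoli genes it was 1.01 ± 0.30 for Ctsl, 0.75 ± 0.57 for Inha, 0.70 ± 0.03 for Cldn11, 0.49 ± 0.30 for Sox9 and 0.43 ± 0.03 for Clu. The gap between the lowest Leydig gene and Ctsl, the highest Sertoli gene, was 0.12 in replicate 1, to Cyp11a1, and 0.22 in replicate 2, to Insl3. Both gaps were smaller than the spread of Ctsl, and the second was larger than that of Insl3. With at least 10 IP reads, the gene medians lay closer, at 1.08 for Cyp11a1 (1 cluster) and 1.06 for Ctsl in replicate 1. In replicate 2 they were 1.39 for Cyp17a1 and 1.32 for Ctsl. Star had no cluster of that depth in either replicate, Hsd3b6 none in replicate 1, and Cyp11a1 and Sox9 none in replicate 2. The order at that depth thus covers only part of the genes.

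Insl3, which encodes the hormone that guides testicular descent, was the most deeply covered Leydig mRNA. The −log10(P value) reached 2 in all 15 of its clusters in replicate 1 and all 14 in replicate 2, and none lay below a log2(fold change) of 0. Along the mRNA the enrichment was lowest at the start of the coding sequence (CDS), 0.36 and 0.42, and highest around the stop codon. There, replicate 2 had 2 touching significant peaks on the plus strand, chr8:71690338-71690362 with 2.13 (95% interval 1.81 to 2.45, 180 IP and 148 SMInput reads) and chr8:71690363-71690415 with 2.29 (1.92 to 2.67, 144 and 106 reads). A peak in the 3′UTR, chr8:71690438-71690452, reached 2.06 (1.45 to 2.68, 51 and 44 reads). The cluster of replicate 1 over the stop codon, chr8:71690339-71690412, reached 1.93 (1.57 to 2.29, 213 and 95 reads) and so fell just short of the threshold at similar strength. Over 25 overlapping pairs of Insl3 clusters the log2(fold change) of the replicates correlated with r = 0.87. This is a description only, since touching clusters share reads and all pairs share the same libraries. Other markers with a value had lower r, from 0.68 for Clu (45 pairs) to -0.21 for Hsd3b6 (6 pairs). With at least 10 IP reads, r was -0.05 over 17 pairs of Ctsl and 0.77 over 9 pairs of Inha. Insl3 lies inside the span of Jak3 on the same strand, and 63.1% of its 30-base stretches occur in Jak3 transcripts too. Jak3 had 0 clusters outside Insl3 in either replicate. Without clusters shared with another protein-coding gene, the count of marker peaks in replicate 2 was 5 in place of 8.

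The 4 Leydig markers of steroid synthesis had shallow clusters, and none of their peaks was seen in both replicates. Star, whose protein moves cholesterol into mitochondria, had 2 clusters per replicate. Its peak of replicate 1 in the 3′UTR, chr8:25814018-25814079 on the plus strand, had a log2(fold change) of 3.76 from 8 IP reads and 1 SMInput read, with an interval of 0.86 to 9.23. Cyp11a1, whose enzyme makes pregnenolone from cholesterol, had all its clusters in the CDS, and a peak in replicate 2, chr9:58025125-58025208 on the plus strand, of 2.02 from 9 and 8 reads (0.47 to 3.59). Hsd3b6, which encodes a hydroxysteroid dehydrogenase, had a CDS peak in replicate 2, chr3:98806407-98806454 on the minus strand, of 3.85 from 4 reads and 1 read (0.51 to 9.47). Its adjusted P value was 0.0504, and 31.1% of the 30-base stretches of Hsd3b6 also occur in other genes, Hsd3b2 and Hsd3b3 leading. At this depth each of these peaks rests on fewer than 10 IP reads. Cyp17a1, which encodes the hydroxylase and lyase leading to androgens, had 0 significant peaks. Its clusters with the most IP reads lay on the minus strand at chr19:46667419-46667559 with 1.08 (0.06 to 2.13, 20 and 16 reads) in replicate 1 and chr19:46667282-46667462 with 1.39 (0.36 to 2.38, 16 and 22 reads) in replicate 2. Their centres lay in the CDS of the main Cyp17a1 transcript and in the 3′UTR of another, by which they were counted as 3′UTR.

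The repeated peaks of the Sertoli markers lay in 3′UTRs. Ctsl encodes cathepsin L, a lysosomal protease that Sertoli cells also secrete. Its peak on the minus strand spanned chr13:64363932-64364035 in replicate 1, with a log2(fold change) of 2.22 (0.9999 to 3.60, 22 and 8 reads), and chr13:64363933-64364007 in replicate 2, with 2.03 (0.94 to 3.13, 17 and 15 reads). The replicates shared 75 bases, and the centres lay 114 and 128 bases after the stop codon. A deeper Ctsl cluster at the start of the CDS, chosen after its values were seen, reached 1.42 in replicate 1 (chr13:64369079-64369148, 82 and 52 reads) and 1.96 in replicate 2 (chr13:64369073-64369144, 79 and 73 reads), below the threshold in both.

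Inha encodes the alpha subunit of inhibin, which restrains the release of follicle-stimulating hormone. In the 3′UTR on the plus strand it had a peak at chr1:75510191-75510266 in replicate 1, of 2.15 (0.92 to 3.54, 21 and 8 reads). In replicate 2 the Inha peak was chr1:75510245-75510252, of 2.96 (1.47 to 4.65, 13 and 6 reads), and all its 8 bases were shared. The intervals of the replicates overlapped for Ctsl and for Inha, so no difference in strength between replicates was detectable at this depth. A peak of Inha in the 5′UTR, chr1:75507184-75507237, passed in replicate 2 with 2.15 (0.9988 to 3.32, 16 and 13 reads) and had no counterpart peak in replicate 1.

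The other 3 Sertoli markers had no repeated peak. Clu, which encodes the secreted chaperone clusterin, had the most clusters, 27 and 33, and 0 significant peaks. Its 3 clusters in the 3′UTR had medians of 1.27 and 1.31, above those of its CDS clusters, 0.24 over 23 clusters and 0.40 over 29. The deepest of the 3 clusters in the Clu 3′UTR lay at chr14:65981308-65981432 in replicate 1, with 1.36 (1.09 to 1.64, 279 and 184 reads), and at chr14:65981327-65981427 in replicate 2, with 1.31 (1.05 to 1.58, 201 and 291 reads), both on the plus strand. A cluster near the start of the Clu CDS, at chr14:65971803-65971853 in replicate 1 and chr14:65971803-65971852 in replicate 2, was chosen after its values were seen and reached 1.15 and 1.30. On Clu, 6 and 12 clusters passed the P value threshold, and none reached a log2(fold change) of 2. Sox9, the transcription factor that sets Sertoli cell fate, had 7 and 8 clusters, of which 0 reached a −log10(P value) of 2. Of its clusters with known reads, those with the most held 12 and 6 IP reads, at chr11:112787693-112787740 in replicate 1 with 0.54 (-0.70 to 1.76) and at chr11:112785858-112785906 in replicate 2 with 1.85 (-0.06 to 3.75), both in the 3′UTR on the plus strand. Cldn11, a claudin of the tight junctions between Sertoli cells, had a single peak, in an intron in replicate 1, chr3:31154821-31154883 on the plus strand, of 3.93 from 9 reads and 1 read (1.08 to 9.39). In replicate 2, the Cldn11 cluster with the highest −log10(P value), 6.95, lay in the 3′UTR at chr3:31163862-31163950 and reached 1.16 (0.71 to 1.61, 69 and 111 reads), a cluster chosen after its values were seen. The overlapping Cldn11 cluster of replicate 1, chr3:31163869-31163979, had a log2(fold change) of -0.10 and a −log10(P value) of 0.

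**Figure D2:**
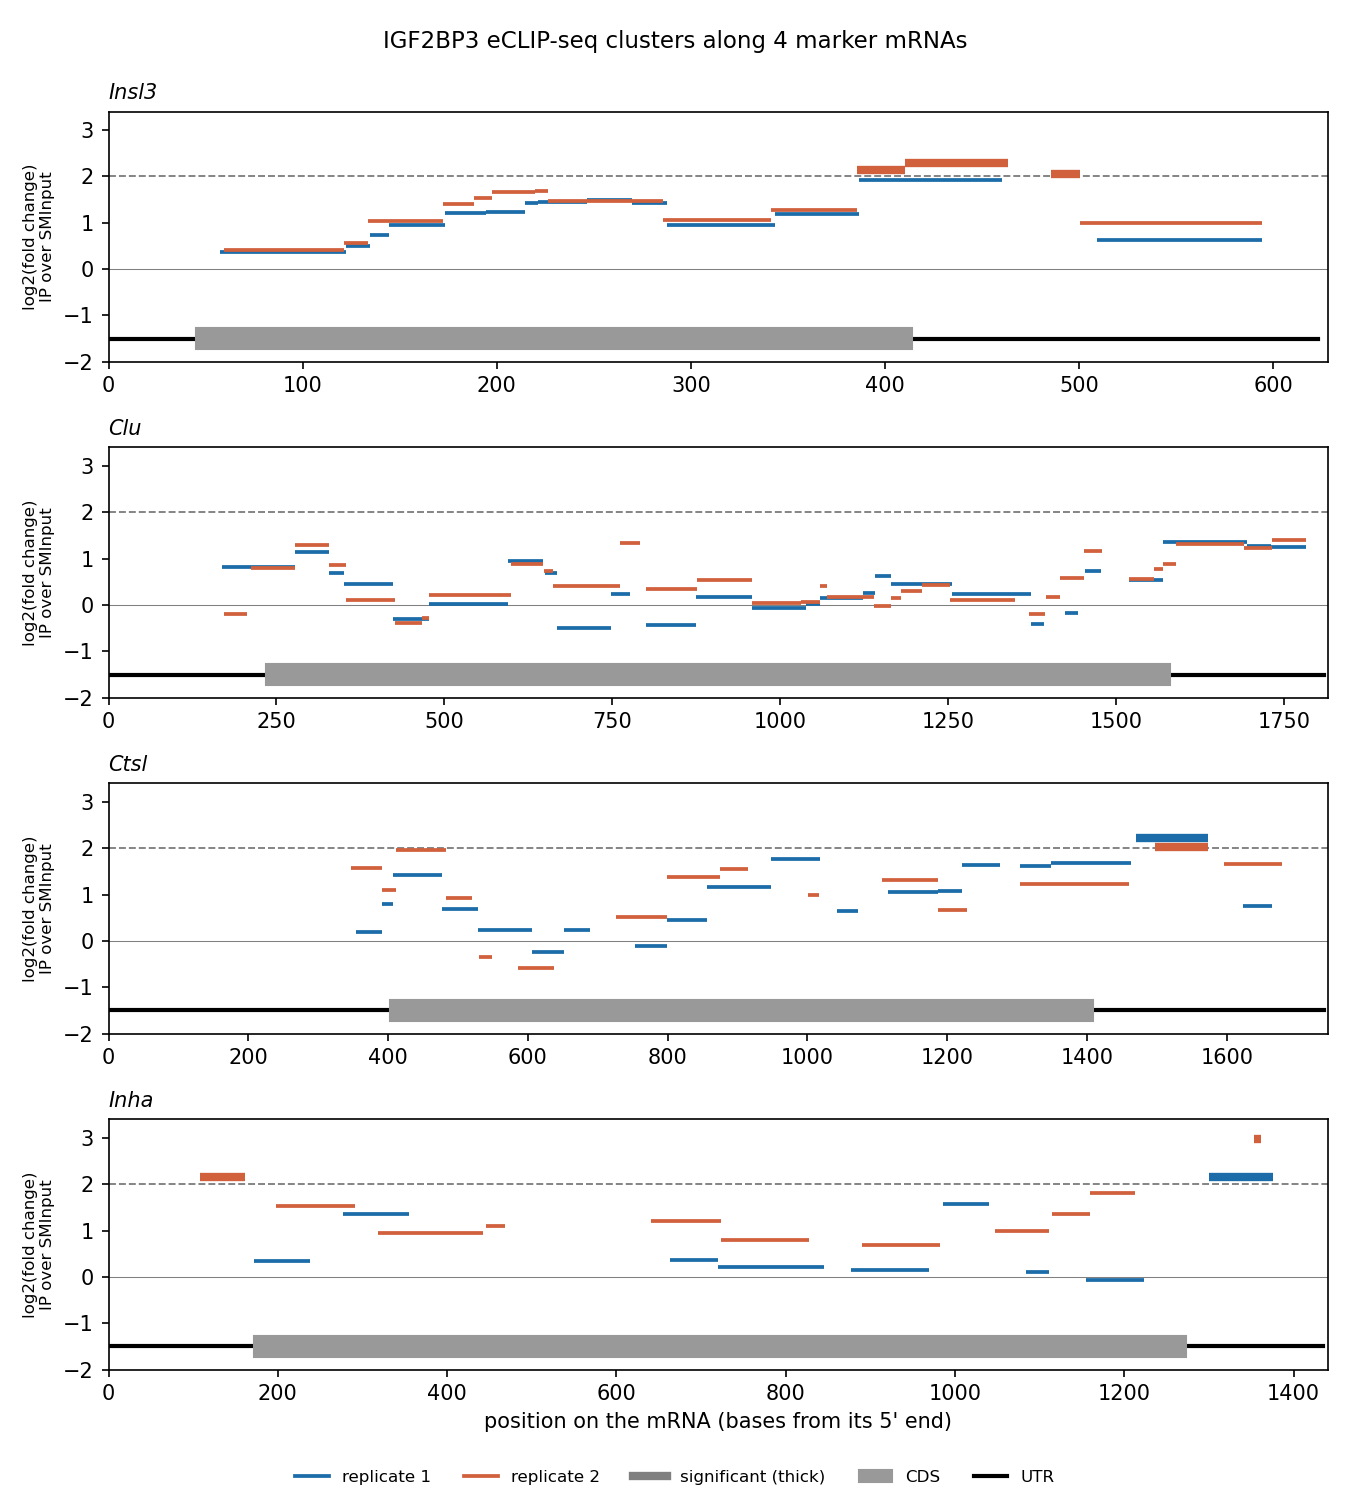
Clusters of Insl3, Clu, Ctsl and Inha are drawn along the mRNA (bases from its 5′ end) at their log2(fold change), by replicate, with significant peaks as thick bars and the CDS as a grey box; bases outside the exons of the drawn transcript are left out, and Ctsl is shown up to just past its last cluster. The highest bars of Insl3 lie over the stop codon and those of Ctsl and Inha in the 3′UTR.

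By region, the marker peaks lay more often in the 3′UTR than the marker clusters did. In the 3′UTR, 3 of 19 marker clusters were significant in replicate 1 and 4 of 24 in replicate 2, where 19.4% and 34.5% of all 3′UTR clusters were. In the CDS the counts were 0 of 83 and 3 of 90, beside 5.28% and 7.97% of all CDS clusters. The median log2(fold change) of marker clusters was higher in the 3′UTR, 0.95 and 1.35, than in the CDS, 0.69 and 0.94, in both replicates. This did not hold for each gene, since Cyp17a1 and Hsd3b6 had lower 3′UTR than CDS medians in both replicates, Sox9 in replicate 1 and Cldn11 in replicate 2. For Cyp17a1, a 3′UTR cluster of replicate 1 and the only one of replicate 2 had centres in the CDS of the main transcript. On that transcript, replicate 2 thus held no 3′UTR cluster to compare. Over all clusters the medians were 1.76 and 1.85 in the 3′UTR, above those of the markers, and 0.76 and 0.93 in the CDS, close to those of the markers. Other regions held few marker clusters, and some had higher medians than the 3′UTR, with 1.76 over 7 intron clusters in replicate 1 and 1.47 over 9 clusters of the 5′UTR in replicate 2.

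The replicates were compared over overlapping marker clusters. Over 130 pairs the log2(fold change) correlated with r = 0.62, and replicate 2 was higher in 89 pairs (68.5%), with a median difference of 0.19. Over all 93525 pairs r was 0.65, replicate 2 was higher in 58.8%, and the median difference was 0.18. With at least 10 known IP reads in both replicates, r was 0.69 over 91 marker pairs and 0.74 over 29867 pairs of all clusters. Clusters of a pair share reads with their neighbours, and all pairs share the same libraries, so these values are descriptions.

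The sequences of the marker sites with the most support are shown 5′ to 3′ on the mRNA strand, in mm10 (GRCm38), with 30 bases around the centre of each site and a motif GGAC in capitals. Ctsl (chr13:64363956-64363985, minus strand, 3′UTR) and Inha (chr1:75510234-75510263, plus strand, 3′UTR) are given because their peaks overlapped between replicates, and Insl3 (chr8:71690362-71690391, plus strand, end of the CDS and 3′UTR) because the joined peaks of replicate 2 over its stop codon, at whose middle the stretch lies, had more IP reads than any other significant marker peak.
Ctsl: catgatttgaattctgttgccatttttaca
Inha: gaggaGGACagagtgtggaaagtagacagt
Insl3: ctgaaggggcacagggctcaggcggtgcgt

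GGAC and AAACC and GAACA, sequences in which the base modification m6A can be placed, were counted in windows of 100 bases around the peaks. GGAC occurred at 2 of 4 marker peaks in replicate 1 (Inha and Star) and at 3 of 8 in replicate 2 (Inha and Insl3), beside 26.2% and 24.0% of all significant peaks. AAACC occurred at the Ctsl peak in both replicates, 1 of 4 and 1 of 8, beside 8.65% and 8.11%. GAACA occurred at the Star and Cldn11 peaks, 2 of 4 in replicate 1 and 0 of 8 in replicate 2, beside 8.89% and 8.38%. With so few marker peaks, these counts describe the sites and were not tested.

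The markers were set beside further genes of the same and other testis cells. Among all protein-coding genes with a cluster, 40.8% had a significant peak in replicate 1 and 62.8% in replicate 2. Of those with a cluster in both replicates, 39.1% had a peak in both. Of 14 other Leydig genes, 14 had clusters in replicate 1 and 13 in replicate 2, and 5 and 7 had a significant peak, 3 of them in both replicates. The peaks overlapped in Nr4a1, with a log2(fold change) of 2.76 and 3.66, and in Cyb5a, with 2.14 and 2.66. Of 27 other Sertoli genes, 27 and 25 had clusters, 13 and 14 had a peak, and 10 had it in both replicates. Peaks overlapped in Tjp1 (2.57 and 2.58), Cst12 (3.08 and 2.53), Dmrt1 (2.48 and 2.47) and Cst9 (3.41 and 2.18), all in the 3′UTR. Repeated peaks were thus found on genes of the other Sertoli list, as on the Sertoli markers Ctsl and Inha. They were also found on other Leydig genes, though on no Leydig marker. Peaks overlapped in 2 of 14 other Leydig and 4 of 27 other Sertoli genes. These shares lay near the 16.6% of protein-coding genes with a cluster in both replicates. No contrast between these lists was tested, and clusters on the listed genes carry no label of the cell they came from.

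Genes of germ cells had clusters throughout. For the counts below, 40.8% and 62.8% of protein-coding genes with a cluster had a peak in replicates 1 and 2. Of those with a cluster in both replicates, 39.1% had a peak in both. All 12 spermatid genes had clusters in both replicates, 7 had a peak in each, 6 in both, and 5 had overlapping peaks. The spermatid genes Oaz3 (3.63 and 3.67), Smcp (3.48 and 3.60) and Odf1 (3.06 and 3.13) had peaks at the cap of 400 on the −log10(P value), and Acrv1 had 2.51 and 2.98. All 12 spermatocyte genes had clusters, 5 and 8 had a peak, 3 in both, and those of Ldhc overlapped (2.37 and 2.56). Of 6 genes of peritubular myoid cells, 6 and 5 had clusters, 2 and 3 a peak, 1 in both and 0 with overlapping peaks. Of 6 macrophage genes, all had clusters, 1 and 2 a peak, 1 in both and 0 with overlapping peaks. Of 6 endothelial genes, 4 and 2 had clusters and 0 had a peak. Overlapping peaks were thus found in 2 of 10 markers, in 5 of 12 spermatid genes, in 1 of 12 spermatocyte genes, in 2 of 14 other Leydig genes and in 4 of 27 other Sertoli genes, beside 16.6% of protein-coding genes with a cluster in both replicates. The lists also count genes without a cluster in a replicate, and the shares were not tested against each other.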

How the data were processed

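IGF2BP3 eCLIP-seq was measured in testes of wild-type C57BL/6 mice aged 8 weeks, as 2 replicates of an IP and its SMInput. The authors trimmed reads with cutadapt, removed rRNA reads with Bowtie2, aligned to mm10 with STAR, collapsed duplicates by UMI and called clusters with Clipper. The deposited tables give for each cluster a −log10(P value) of IP against SMInput reads, from 0 to a cap of 400. They also give the authors' log2(fold change) of IP over SMInput, normalised to usable reads. Clusters in which both values reached 2, the thresholds of the authors, are called significant peaks.

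The members and lists were chosen with earlier results of these data known. Clusters were given to genes of GENCODE release M21 by centre and strand, and to regions in the order 3′UTR before CDS before 5′UTR, then other exons and introns, of basic transcripts. The named genes were all 10 markers with each significant peak or, without one, the cluster with the most IP reads, and up to 4 genes per further list with overlapping peaks in both replicates. The further lists were those of Leydig, Sertoli, peritubular myoid, macrophage, endothelial, spermatid and spermatocyte genes.

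The usable reads of each library and the reads of each cluster were worked out as the whole numbers that give the listed log2(fold change) and P value (Fisher's exact test where an observed or expected number is below 5, otherwise a chi-square test with Yates' correction). The method was tested on simulated data, where it returned the totals put in. In each replicate the totals were chosen to match 300 clusters, and matched all 300, where the next best totals matched 34 and 146. Reads were found for 98.9% and 99.2% of clusters listed between those 2 limits of the −log10(P value), and for none at 0, which left 19 and 9 clusters of the markers without reads. The 95% intervals are exact Clopper-Pearson intervals of the IP share of reads, and cover counting error only. With 2 replicates, no test between groups of genes was made.

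Alternatives were stricter and looser thresholds, a Benjamini-Hochberg adjusted P value under 0.05, centres in exons, clusters shared with another protein-coding gene left out, at least 10 IP reads, an overlap of at least 50%, 1 value per gene, and each replicate left out. Python 3.11.15 with numpy 2.4.6, scipy 1.17.1, pandas 2.3.3 and matplotlib 3.10.9, and bedtools 2.31.1, were used. Other assays of the series were not used here.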

Additional observations from a re-analysis of the deposited data

How the results depend on the processing

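The counts of 4 and 8 significant marker clusters in replicates 1 and 2, and of 2 markers with a peak in both replicates and 2 with overlapping peaks, depended on the thresholds. With both thresholds at 3 they were 1, 0, 0 and 0, and when the log2(fold change) had only to reach 1 they were 27, 37, 6 and 5. At that looser setting the marker shares of clusters lay above those of all clusters, 7.24% and 18.4%. No share over all protein-coding genes was worked out there, so the counts of 6 and 5 markers say nothing particular to the markers. Without clusters shared with another protein-coding gene the count of replicate 2 was 5, by construction, since the peaks of Insl3 drop out, and with at least 10 IP reads that of replicate 1 was 2. Leaving out each replicate in turn gave 4 to 5 markers with a peak, by construction those of the remaining replicate, and overlap then cannot give a value. The median log2(fold change) of replicate 2 was 1.33 as a median of gene medians, against 1.02. Of 35 alternative values, 22 stayed within 1.5 times the count or the spread of the replicate medians, 13 did not and 0 changed sign. A count cannot change sign, so the last holds meaning for the medians only. The cause of the other changes was not tested. No paired analysis was possible because the counts and medians come from no test across replicates, and the pairing of each IP with its SMInput is already inside each deposited value. Intervals were wide at few reads, as 0.51 to 9.47 for the Hsd3b6 peak of 4 IP reads.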
